A study of Mus musculus with 6 samples.

Results

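Mitosis and spindle genes encode the proteins that take a cell from G2 through chromosome segregation to its division into daughter cells. A list of 40 such genes was followed on 6 Affymetrix arrays of cultured mouse lymphatic endothelial cells (LEC). The genes were chosen by name, with earlier results of these data known. A gene's value was that of its brightest probe set with 1 annotated gene, and 39 of the 40 had one among the 12954 genes tested. Ccnb1, which encodes cyclin B1, is not analysed here.

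The 3 tumour arrays held RNA of LEC from T241/VEGF-C/GFP fibrosarcomas grown in C57BL/6 mice. T241 is a single mouse fibrosarcoma line, and VEGF-C is a growth factor for lymphatic vessels. The 3 normal arrays held RNA of dermal LEC from tail skin of female C57BL/6 mice aged 8 weeks. The labels give no age or sex for the tumour-bearing mice. Cells of both groups were grown in EGM-2 medium on gelatin and, per the labels, selected with beads against LYVE-1, a hyaluronan receptor of lymphatic endothelium. Per the labels most, not all, tumour cells had first been lifted off. The text on the tumour cells breaks off into that on skin, so their selection rests on it only in part. The titles of the tumour arrays call them tumour cells, and the source descriptions, which name LEC, are followed here. Whether replicates are different cultures or different mice is not recorded. The p-values therefore cover no more than the scatter of these arrays, which may be technical.

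Dividing cells build up the RNA of these genes as they pass from S phase into G2 and M, and cells that have left the cycle hold little of it. CDK1 with its cyclins starts mitosis, kinases and motor proteins set up the spindle, and a checkpoint holds the anaphase-promoting complex back until all chromosomes are attached. That complex then marks cyclins and the separase inhibitor for destruction, which frees the sister chromatids. In quiescent cells the DREAM complex keeps the genes silent, and in cycling cells the B-MYB and FOXM1 complexes activate them, both through a short promoter element, the cell cycle genes homology region or CHR. CCAAT boxes, bound by NF-Y, often lie next to it.

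Most promoter windows of these genes held the elements that the biology above names. That biology was described for genes of this class, so the shares are a description and no independent support. RefSeq (GRCm38.p6) gave windows of 250 bases before to 50 after the start for 33 of the 39 genes. The letters searched on both strands were TTTGAA or TTCGAA for the CHR, CCAAT for the NF-Y box, and TTCCCGC or TTTGGCG for E2F. No motif was counted in another's place, and matches of different motifs may overlap. A CHR match was found in 27 of the 33 (81.8%), against 21.7% of 27025 genes with such a window. A CCAAT match was found in 26 (78.8%, against 41.1%), and both together in 24 (72.7%, against 8.61%). E2F letters were found in 1, Ncapg (3.03%, against 6.83%). A CHR match lay within 50 bases of the start in 25 genes. In 13 genes it lay only after the start, and counted before the start alone the share was 14 of 33 (42.4%, against 19.6% of all genes). Other mitosis genes had CHR letters in 60.3% and E2F letters in 23.8% of their windows. DNA replication genes had CHR letters in 21.2%, close to all genes, and E2F letters in 60.6%. Stretches before the start are shown for 7 genes with both a CHR and a CCAAT match there, a condition most members do not meet, whose differences range from the smallest difference to some of the largest reported below. Capitals mark the CHR and CCAAT letters, which read TTCAAA and ATTGG where the match is on the other strand.

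Cdc20, chr4:118437344-118437408, minus strand: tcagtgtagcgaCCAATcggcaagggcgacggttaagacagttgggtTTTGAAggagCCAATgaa
Cdk1, chr10:69352913-69353132, minus strand: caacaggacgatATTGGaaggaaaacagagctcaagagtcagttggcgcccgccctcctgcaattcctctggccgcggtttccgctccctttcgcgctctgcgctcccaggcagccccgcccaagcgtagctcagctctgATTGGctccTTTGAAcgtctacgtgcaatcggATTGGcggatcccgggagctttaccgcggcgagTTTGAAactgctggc
Espl1, chr15:102296237-102296283, plus strand: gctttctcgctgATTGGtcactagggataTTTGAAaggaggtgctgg
Kif11, chr19:37376325-37376380, plus strand: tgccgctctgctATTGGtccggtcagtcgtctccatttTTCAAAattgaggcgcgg
Mki67, chr7:135716460-135716579, minus strand: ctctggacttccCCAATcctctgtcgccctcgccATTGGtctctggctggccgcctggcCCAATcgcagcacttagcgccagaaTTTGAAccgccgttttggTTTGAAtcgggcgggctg
Ncapg, chr5:45669737-45669912, plus strand: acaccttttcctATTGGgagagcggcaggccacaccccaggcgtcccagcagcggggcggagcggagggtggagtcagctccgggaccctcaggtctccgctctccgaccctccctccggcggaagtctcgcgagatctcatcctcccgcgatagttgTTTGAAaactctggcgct
Kif22, chr7:127042421-127042665, minus strand: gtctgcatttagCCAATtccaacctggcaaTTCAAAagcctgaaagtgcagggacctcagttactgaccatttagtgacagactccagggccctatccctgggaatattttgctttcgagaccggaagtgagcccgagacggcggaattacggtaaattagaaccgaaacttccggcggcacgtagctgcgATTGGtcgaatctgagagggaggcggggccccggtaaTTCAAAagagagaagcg

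**Figure D1:**
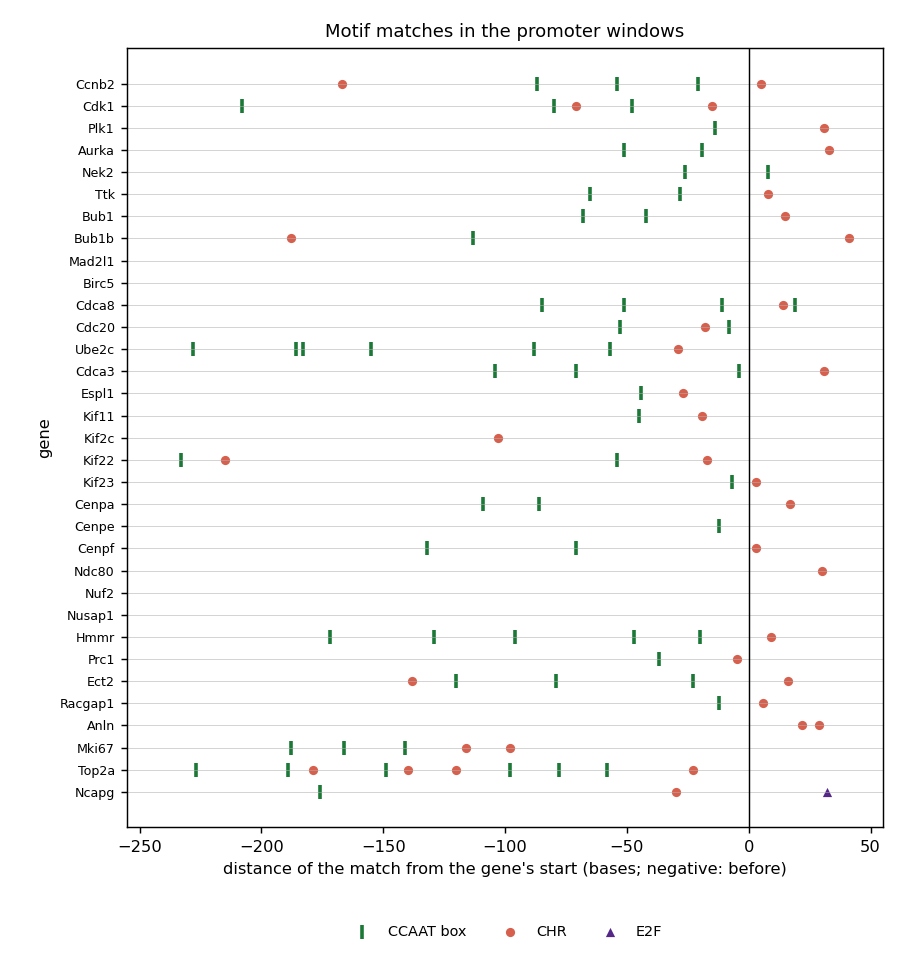
Positions of the CCAAT, CHR and E2F letters in the promoter windows of the 33 genes, as the distance in bases of a match's first base from the gene's start. For Ect2 and Prc1, which have 2 windows each, 1 is drawn. CHR matches gather around the start and CCAAT matches before it, and 4 genes (Mad2l1, Birc5, Nuf2 and Nusap1) show no match of any kind.

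The 6 genes without CHR letters in the window were Birc5, Cenpe, Mad2l1, Nek2, Nuf2 and Nusap1. Their log2 differences between tumour and normal LEC ran from -2.07 to -1.35 with a median of -1.96. The 27 genes with the letters had a median of -1.82 and ran from -2.49 to -0.83, a wider range that holds that of the 6. A match is a description of the letters, and its absence says only that these letters are not in this window.

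All 39 genes had a lower mean in tumour LEC than in normal LEC, as had 46.9% of all genes tested. Their median log2 difference was -1.87, against 0.03 over all genes. The differences ran from -0.83 for the chromokinesin gene Kif22 to -2.49 for the cyclin gene Ccnb2, which is 1.77-fold to 5.62-fold lower. None of the 39 passed an adjusted p of 0.05 (limma with Benjamini-Hochberg adjustment over all genes), a threshold that 0.216% of all genes passed, 0.17% in the lower and 0.0463% in the higher direction. At least 2-fold lower were 38 of the 39 (97.4%), against 6.76% of all genes. The smallest adjusted p was 0.252, for Ncapg. At an unadjusted p of 0.05, 7 of the 39 (17.9%) were lower, against 8.83% of all genes (15.5% in both directions). The 3 tumour arrays lay wholly below the 3 normal arrays for 22 of the 39 (56.4%), against 11.6% of all genes. The arrays measure bulk RNA, so fewer dividing cells and less of this RNA per dividing cell cannot be told apart.

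The tumour arrays were far from equal. On every 1 of the 39 genes tumour replicate 3 was the lowest of the 6 arrays and tumour replicate 1 the second lowest, an order found in 5.77% of all genes. Tumour replicate 3 alone was lowest in 21.3% of all genes. Tumour replicate 3 was below the normal mean by a median of 3.66 log2 units (value -3.66), tumour replicate 1 by 1.47 (value -1.47) and tumour replicate 2 by 0.39 (value -0.39). In tumour replicate 3, 29 of the 39 (74.4%) lay at least 8-fold under the normal mean, against 2.35% of all genes. No member did so in tumour replicate 1 or 2, where the shares of all genes were 0.919% and 1.24%. Tumour replicate 2 lay inside the normal range for 17 members (43.6%, close to the 39.1% of all genes). It lay below that range for 22 (56.4%, against 25.8% of all genes). For no member was it above that range, against 35.1% of all genes. Tumour replicates 1 and 3 lay below it for all 39, against 28.7% and 31.7% of all genes. Normal replicate 2 was the highest array for 36 of the 39 (92.3%, against 19.1% of all genes), and normal replicate 1 for Mad2l1, Nusap1 and Anln. For 20 members (51.3%) the whole order was the same: tumour replicates 3, 1 and 2, then normal replicates 3, 1 and 2, from low to high. That order was found in 1.23% of all genes.

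**Figure D2:**
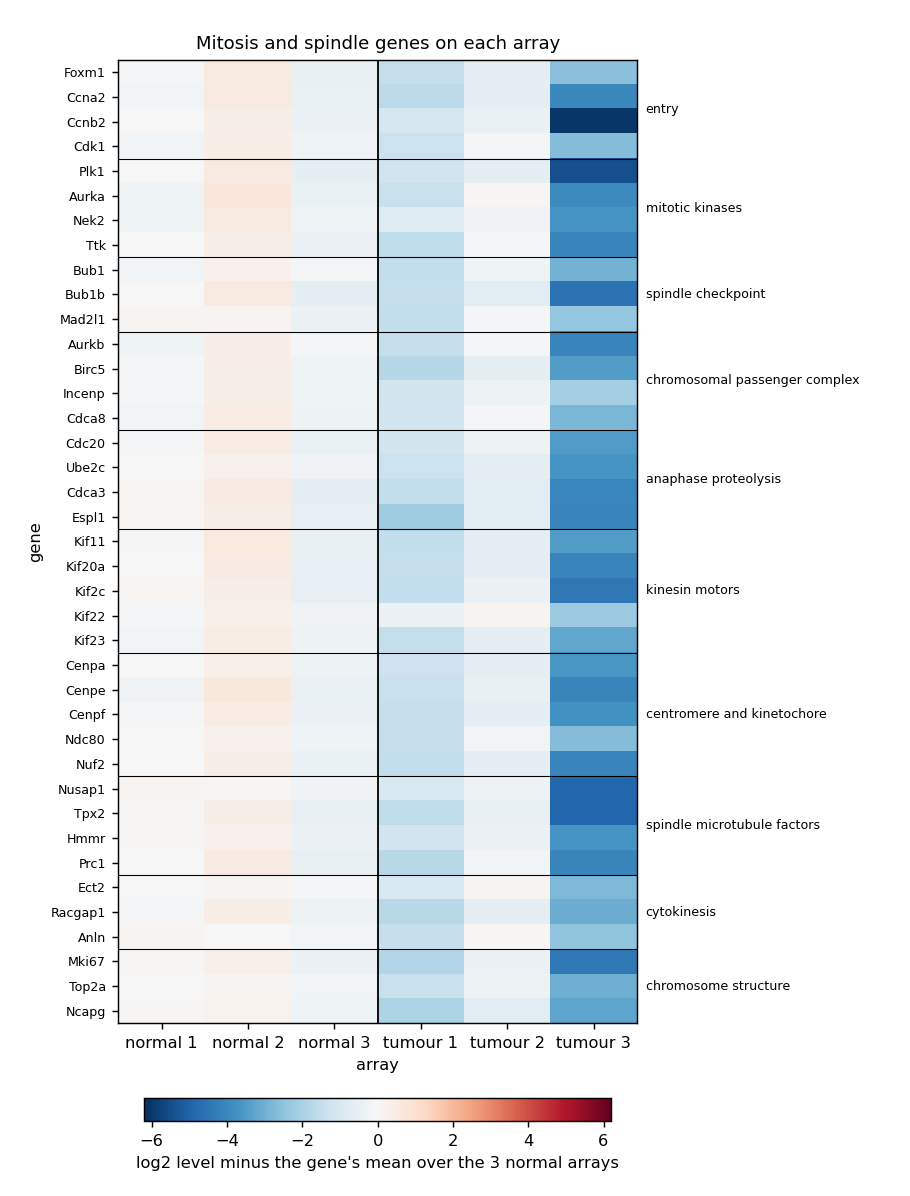
Each row is a gene, grouped by role, and each column an array. The colour is the log2 level minus the gene's mean over the 3 normal arrays, with blue below it and red above it. Tumour replicate 3 is the darkest column, from -2.13 for Incenp to -6.01 for Ccnb2, and tumour replicate 2 is close to the normal columns.

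The spread between tumour arrays was wider than that between normal arrays for all 39 genes, against 64.7% of all genes. The median SD was 1.66 in tumour LEC and 0.38 in normal LEC (n = 3 each), and over all genes it was 0.26 and 0.20. With tumour replicate 3 left out, all 39 were still lower, with a median of -0.91, and none passed (smallest adjusted p = 0.336, limma). Arrays were also weighted by how closely they followed their group means, which is no measure of RNA quality. This gave tumour replicate 2 a weight of 3.72 and tumour replicate 3 a weight of 0.31, and the median was -0.75.

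Several facts of the arrays stood beside this. Tumour replicate 3 had the highest median value of all probe sets (3.15, against 2.99 to 3.02 on the other 5) and the highest background limit, 3.71 against 3.40 to 3.53. That limit is the brightest of 27 control probe sets for absent bacterial RNA. Its 3 prime minus 5 prime signal of Gapdh, 1.94, lay within the 1.82 to 2.25 of the other arrays. With median centring the median of the 39 mitosis genes was -1.93 and with quantile normalization -1.79, against -1.87 in the main fit. The part of the array median, background limit and Gapdh signal in the result was not tested further. The LEC markers Lyve1, Prox1, Pdpn, Flt4, Reln and Nrp2 were above background on all arrays, whereas Mmrn1 and the endothelial marker Vwf were not above it on any. The summed linear level of 7 lymphatic markers, as log2, was 14.6 to 15.2 in normal and 14.8 to 15.5 in tumour LEC, and none passed (Lyve1 0.60, SE 0.28, and Nrp2 0.60, SE 0.34, higher in tumour LEC). Of 10 endothelial markers 8 were higher in tumour LEC and none passed, with the smallest p for Eng (1.70, SE 0.38) and Esam (2.08, SE 0.51).  Of 11 fibroblast markers 10 were lower in tumour LEC. Their median difference was -4.41, and 9 had an unadjusted p under 0.05 (81.8%, against 15.5% of all genes). On tumour replicates 1, 2 and 3, 7, 8 and 7 of the 11 lay at least 8-fold under the normal mean. The exception was Thy1, named like the macrophage markers below after its values were seen, a surface protein that read 12.58 to 12.83 in normal and 12.97 to 13.67 in tumour LEC (difference 0.67, SE 0.21). Thy1 made up most of the summed level of the list on the tumour arrays, which was 13.0 to 13.7 as log2, against 13.6 to 15.4 on the normal arrays. Col1a2, a collagen chain, was the only one past the threshold (log2 difference -9.38, SE 0.77, adjusted p = 0.028, limma; at background on 2 tumour arrays), and Loxl1, next in p, was at background on all 3. These markers were highest in normal replicate 1, and without that array the median of the 39 mitosis genes was -1.90. The 10 leukocyte markers summed to 10.9 to 12.2 on the normal and 10.9 to 12.9 on the tumour arrays, highest in tumour replicate 1, where Ptprc or CD45 read 5.92 against at most 3.36 elsewhere. Without that array the median of the mitosis genes was -2.04. In tumour replicate 3, where the mitosis genes were lowest, the macrophage markers Cd68, Lyz2 and Csf1r were below the normal mean (-4.04, -3.25 and -2.54), while Cd14 was above it (1.37). In tumour replicate 1 these markers were all above it, by 0.48 to 2.16. The rest of the list stood nearer the normal mean in tumour replicate 3, from -0.38 for Tyrobp to 0.38 for Laptm5. Adgre1, also a macrophage marker, was at -0.14 there, and the median of all 10 leukocyte markers was -0.06. The smallest p of the 10, for Aif1 and Cx3cr1, belonged to genes at background on all arrays. The 4 measured keratinocyte markers summed to at least 7.42 in normal and 7.29 to 7.32 in tumour LEC, and none passed (Krt10 -0.24, SE 0.11, and Krt5 0.26, SE 0.20). The part of other cells in the result was not tested, and leaving out single arrays does not test it. Fibroblast markers stood higher on the other normal arrays too. Against the gene's mean over 6 arrays their median was 1.13 and 1.02 on normal replicates 2 and 3. On the tumour arrays it was -2.20 to -1.87.

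The genes that start mitosis came first. Foxm1, the transcription factor that switches on late cell cycle genes, read 6.77, 7.46 and 6.43 on normal replicates 1 to 3 and 5.41, 6.29 and 4.29 on tumour replicates 1 to 3. The groups did not overlap, with a log2 difference of -1.56 (SE 0.56, adjusted p = 0.287, limma). Cdk1, the kinase that drives entry into mitosis, read 10.88, 11.48 and 10.82 in normal LEC and 9.75, 10.98 and 8.37 in tumour LEC. Tumour replicate 2 lay among the normal arrays here, and the difference was -1.36 (SE 0.67). Ccnb2, a B-type cyclin and partner of Cdk1, read 10.86, 11.22 and 10.53 in normal LEC and 9.81, 10.47 and 4.86 in tumour LEC. Its value in tumour replicate 3 was 64.5-fold under the normal mean, the largest such gap of the list, while tumour replicate 2 was only just below normal replicate 3. The difference of -2.49 was the largest of the list and had the largest standard error (SE 1.51, 95% interval -6.24 to 1.26), and without tumour replicate 3 it was -0.73 (SE 0.31). Ccna2, the cyclin of S and G2 phase, differed by -2.04 (SE 0.90).

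The mitotic kinases all had tumour replicate 2 at or above the lowest normal array. Plk1, polo-like kinase 1, acts at centrosomes, kinetochores and the midbody, and read 9.14, 9.71 and 8.57 in normal LEC and 7.92, 8.57 and 3.67 in tumour LEC. In tumour replicate 3 it was at the background limit, the only member at background on any array, so that array was at least 43.0-fold under the normal mean. The difference was -2.42 (SE 1.33), and -0.90 (SE 0.43) without tumour replicate 3. Aurka, the centrosomal Aurora kinase, differed by -1.76 (SE 1.03). Nek2, which parts the centrosomes, differed by -1.56 (SE 0.92) and Ttk or MPS1, which starts the checkpoint signal, by -1.91 (SE 1.02).

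Of the checkpoint genes, Bub1, a kinase at unattached kinetochores, read 9.41, 9.83 and 9.47 in normal LEC and 8.03, 9.31 and 6.66 in tumour LEC. Bub1b or BUBR1, part of the complex that blocks the anaphase-promoting complex, read 9.90, 10.46 and 9.35 against 8.42, 9.24 and 5.31. In both genes the groups were apart, by a difference of -1.57 (SE 0.66) for Bub1 and -2.25 (SE 1.05) for Bub1b. Mad2l1, which encodes the inhibitor MAD2 of the same complex, read 11.62, 11.60 and 11.10 in normal LEC and 9.90, 11.34 and 9.04 in tumour LEC. Its groups overlapped, and the difference was -1.35 (SE 0.59).

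The chromosomal passenger complex corrects faulty attachments and later marks the cleavage plane. Aurkb, its kinase, read 8.12, 8.79 and 8.27 in normal LEC and 6.93, 8.26 and 4.30 in tumour LEC, with tumour replicate 2 between normal replicates 1 and 3 and a difference of -1.90 (SE 1.00). Birc5 or survivin, its targeting subunit, read 10.81, 11.24 and 10.66 against 9.15, 10.28 and 7.45, and its groups were apart (difference -1.94, SE 0.72, adjusted p = 0.292, limma). Incenp, the scaffold, read 12.28, 12.73 and 12.09 against 11.24, 12.03 and 10.23. Incenp had the narrowest spread among tumour arrays of all members (SD 0.90, n = 3) and a difference of -1.20 (SE 0.48). Its next probe set read 8.23, 8.19 and 7.39 against 6.60, 7.12 and 4.10, with the groups apart. Cdca8 or borealin, the fourth subunit, differed by -1.38 (SE 0.71).

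For the genes of regulated proteolysis and chromatid release, Cdc20, the activator of the anaphase-promoting complex, read 12.74, 13.28 and 12.40 in normal LEC and 11.67, 12.50 and 9.30 in tumour LEC. Tumour replicate 2 was above normal replicate 3, and the difference was -1.65 (SE 0.84). Espl1, the separase that cuts cohesin, read 8.28, 8.50 and 7.63 against 5.93, 7.50 and 4.04. Its groups were apart by -2.31 (SE 0.88), and it had the largest difference of the list without tumour replicate 3, -1.43 (SE 0.58). Cdca3, also known as trigger of mitotic entry 1, read 10.34, 10.74 and 9.64 against 8.70, 9.56 and 6.19, again apart, by -2.09 (SE 0.90). Ube2c, the ubiquitin-conjugating enzyme of the complex, differed by -1.87 (SE 0.79).

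Among the kinesin motors, Kif11 or Eg5, which pushes the spindle poles apart, read 8.07, 8.77 and 7.72 in normal LEC and 6.68, 7.63 and 4.74 in tumour LEC (difference -1.84, SE 0.77). Kif2c or MCAK, which takes microtubule ends apart at centromeres, read 11.11, 11.32 and 10.48 against 9.43, 10.59 and 6.53. The groups were apart for Kif11 and overlapped for Kif2c, whose difference was -2.12 (SE 1.04). Kif22, which pushes chromosome arms towards the spindle equator, read 10.91, 11.39 and 10.85 against 10.68, 11.21 and 8.78. It was the one member with a difference near 0 once tumour replicate 3 was left out, -0.10 (SE 0.26), against -0.83 (SE 0.65) on all arrays. Its other probe sets above background gave -1.76 and -1.66, so its brightest stood apart from them. The brightest and the probe set at -1.76 are both of kinds that may cross-hybridize (_x_at and _s_at). Kif20a and Kif23, motors of the central spindle, differed by -2.04 (SE 0.93) and -1.74 (SE 0.69).

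At the centromere, Cenpf, a large protein of the outer kinetochore, read 10.32, 10.84 and 10.04 in normal LEC and 8.95, 9.85 and 6.63 in tumour LEC. Nuf2, a subunit of the NDC80 complex that grips microtubules, read 9.98, 10.33 and 9.57 against 8.41, 9.41 and 5.86. The groups were apart in both, with differences of -1.92 (SE 0.84) for Cenpf and -2.07 (SE 0.92) for Nuf2. Cenpa, the histone H3 variant of centromeres, Cenpe, a kinetochore motor, and Ndc80 differed by -1.82 (SE 0.79), -1.98 (SE 0.97) and -1.46 (SE 0.63).

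The spindle microtubule factors had the lowest median of the 10 roles in tumour replicate 3, -4.47 against the normal mean. Tpx2, which activates Aurora A and starts microtubules at chromosomes, read 10.79, 11.09 and 10.24 in normal LEC and 9.13, 10.25 and 5.81 in tumour LEC. Nusap1, which bundles spindle microtubules, read 9.51, 9.42 and 9.13 against 8.38, 9.04 and 4.48. Tumour replicate 2 was within 0.1 of normal replicate 3 for both genes, while tumour replicate 3 was 29.9-fold and 29.3-fold under the normal mean. The differences were -2.31 (SE 1.15) for Tpx2 and -2.05 (SE 1.21) for Nusap1. Hmmr, a hyaluronan receptor that also binds spindle microtubules, differed by -1.73 (SE 0.86), and Prc1, which bundles the central spindle, by -1.99 (SE 0.99).

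Of the genes of cytokinesis, Racgap1, which with Kif23 forms centralspindlin, read 9.01, 9.53 and 8.80 in normal LEC and 7.39, 8.51 and 6.05 in tumour LEC. Its groups were apart by -1.79 (SE 0.63, adjusted p = 0.280, limma). Ect2, the activator of RhoA at the cleavage furrow, read 9.48, 9.70 and 9.38 against 8.53, 9.70 and 6.73. Anln or anillin, a scaffold of the contractile ring, read 12.58, 12.47 and 12.25 against 11.02, 12.50 and 9.95. In Ect2 and Anln tumour replicate 2 was level with the higher normal arrays, and the differences were -1.20 (SE 0.74) and -1.28 (SE 0.64). The median of the 3 genes in tumour replicate 2 was 0.07 above the normal mean, the only role with a positive one.

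The last role is chromosome structure. Mki67, the Ki-67 antigen that coats mitotic chromosomes and marks cycling cells in pathology, read 12.85, 13.08 and 12.44 in normal LEC and 10.97, 12.42 and 8.37 in tumour LEC. Top2a, the topoisomerase that untangles sister chromatids, read 11.93, 12.08 and 11.77 against 10.55, 11.60 and 8.90. Ncapg, a subunit of condensin, read 9.07, 9.21 and 8.73 against 7.05, 8.31 and 5.74. In all of these the groups were apart, and tumour replicate 2 was the tumour array nearest to normal. The differences were -2.20 (SE 1.02) for Mki67, -1.57 (SE 0.67) for Top2a and -1.97 (SE 0.65, 95% interval -3.58 to -0.37) for Ncapg. For 32 of the 39 genes the 95% interval of the limma fit, not adjusted for the number of genes, included 0.

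**Figure D3:**
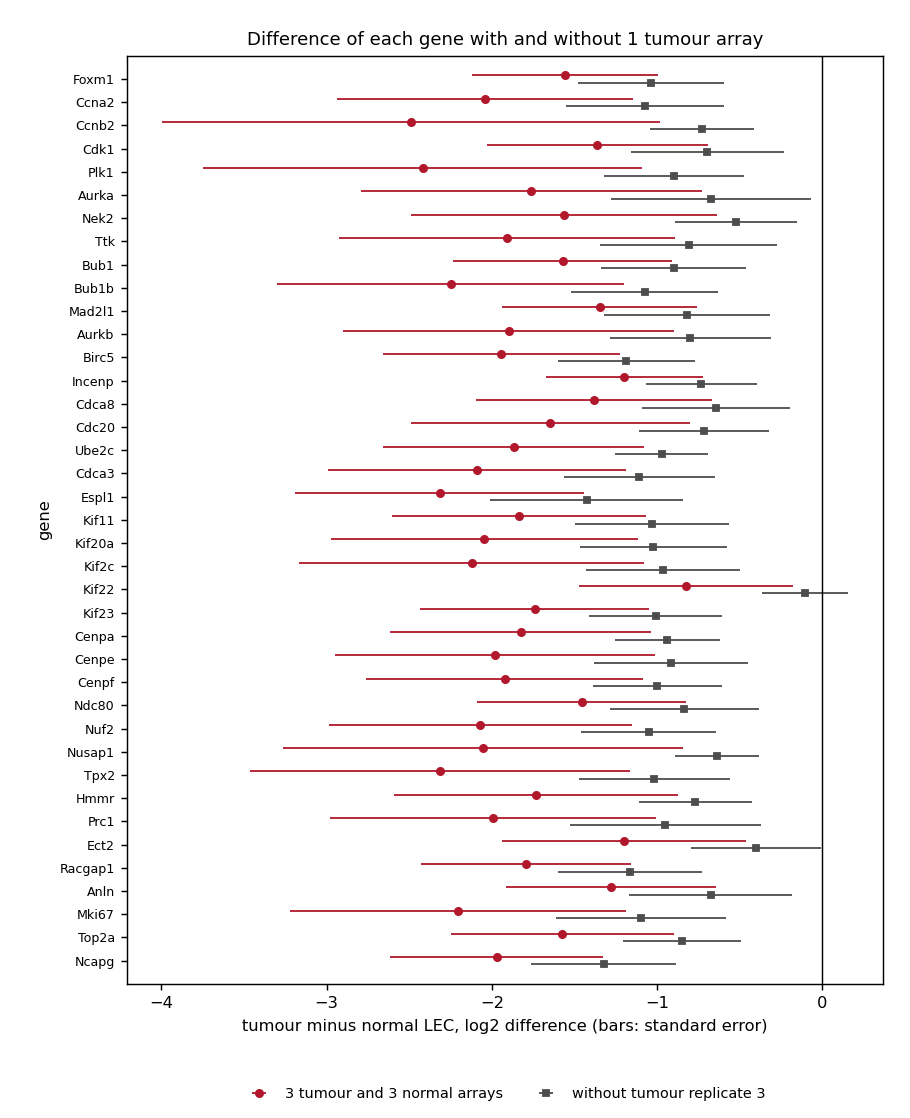
The log2 difference, tumour minus normal LEC, of each of the 39 genes with its standard error, for all 6 arrays (circles) and without tumour replicate 3 (squares). All points lie below 0; without that array they sit closer to 0, between -1.43 for Espl1 and -0.10 for Kif22.

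In all, 91 probe sets were annotated to 1 of the 39 genes, of which 77 had a lower mean in tumour LEC and 14 a higher one. Among those that were not their gene's brightest, the direction went with the level on the normal arrays. The 31 of these that were above the background limit on all 3 normal arrays were all lower, with tumour replicate 3 the lowest array in 26. The other 21 were at background on some normal array. Of these 7 were lower and 14 higher, with differences from -0.64 to 0.25. The limit on the normal arrays keeps probe sets of the group in which these genes read high, so the 31 are a description and no support for the direction.

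Other genes of the same process were lower as well, with wider scatter. Of 76 measured genes of mitosis outside the list, 73 were lower in tumour LEC and 3 higher, with a median difference of -1.43. None of them passed the test (limma), 17 had an unadjusted p under 0.05 (22.4%, against 15.5% of all genes), and the groups were apart in the lower direction for 25 (32.9%, against 11.6%). The smallest p belonged to Knl1, a kinetochore scaffold at background in a tumour array, at -1.18 (SE 0.37), and Ube2s, the chain-extending enzyme of the anaphase-promoting complex, at -0.74 (SE 0.25). Set against the normal mean, tumour replicates 1, 2 and 3 had medians of -1.26, -0.21 and -2.60 for these genes.

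Genes of DNA replication, which act in S phase, were low in tumour replicates 1 and 3 to about the same degree. Of 37 measured genes 36 were lower, with a median of -0.99, none passed (limma) and 15 had an unadjusted p under 0.05 (40.5%, against 15.5% of all genes). Their median against the normal mean was -1.43 in tumour replicate 1, where that of the mitosis genes was -1.47. In tumour replicate 3 it was -1.55, where that of the mitosis genes was -3.66, and 3 of the 37 (8.11%) were at least 8-fold under the normal mean. This difference between the lists was not tested. Cdt1 and Mcm7, which license replication origins, had the smallest p, with differences of -0.99 (SE 0.31) and -1.47 (SE 0.48).

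Genes of spindle and segregation proteins that cells also need outside mitosis had smaller differences. Of 38 genes of this kind, among them cohesin, dynein, gamma-tubulin and core subunits of the anaphase-promoting complex, 27 were lower and 11 higher, with a median of -0.17. None passed (limma), and 4 had an unadjusted p under 0.05 (10.5%, against 15.5% of all genes). The groups were apart in the lower direction for 12 (31.6%, against 11.6%), a share like that of the other mitosis genes, and the tumour arrays' medians were -0.17, -0.04 and -0.34 for replicates 1 to 3. Smc3, a cohesin subunit, and Clasp1, which stabilises microtubules, had the smallest p, at -0.63 (SE 0.15) and -0.52 (SE 0.16).

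Genes linked to holding or ending the cycle went both ways. Some of those listed, such as Lin9 and Tfdp1, are not brakes alone. Of 21 measured genes 13 were lower and 8 higher, with a median of -0.08, none passed (limma) and 2 had an unadjusted p under 0.05 (9.52%, against 15.5% of all genes). Cdkn1c, the CDK inhibitor p57, read 7.95, 9.42 and 8.00 in normal LEC and 9.88, 10.04 and 10.41 in tumour LEC. Its groups were apart, as in 20.9% of all genes in that direction, with tumour LEC higher by 1.65 (SE 0.44, adjusted p = 0.200, limma). Fzr1, the activator that keeps the anaphase-promoting complex on in G1, read 7.98, 8.02 and 7.41 against 7.33, 7.24 and 6.42, lower in tumour LEC with a difference of -0.81 (SE 0.31).

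**Figure D4:**
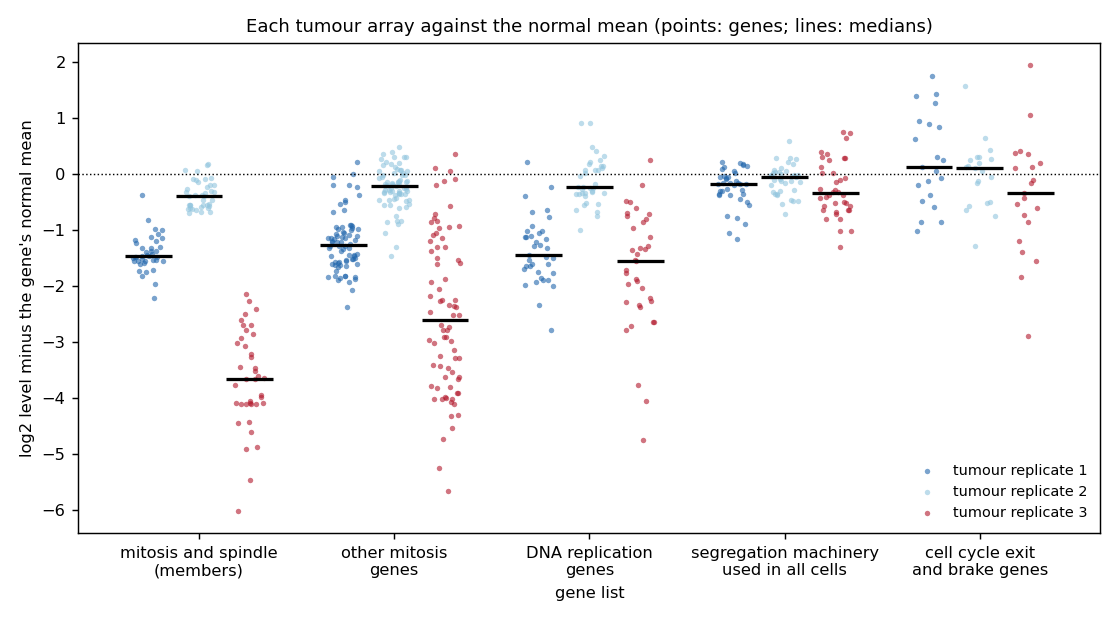
Log2 level of each gene minus its mean over the 3 normal arrays, for each tumour array, in 5 gene lists; points are genes and lines are medians. The mitosis and spindle genes have the lowest median of the 5 lists in tumour replicate 3 (-3.66), whereas DNA replication genes have like medians in tumour replicates 1 and 3 (-1.43 and -1.55).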

How the data were processed

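Log2 expression values per probe set were deposited by the authors for 6 arrays. The submitters' processing notes name RMA with GCRMA, without saying which was applied to these files; both methods correct background and normalize between arrays, and GCRMA draws dim signals to a floor. Per the labels, 50 ng of RNA per array was amplified and biotin-labelled. Genes were named from GEO's platform annotation, using probe sets with 1 gene. Of 45101 probe sets those with a mean above the 40th percentile (2.71) were kept, and the brightest per gene was used. Tumour and normal LEC were compared with limma 3.58.1 in R 4.3.3 (lmFit, eBayes, Benjamini-Hochberg, two-sided); 3 arrays against 3 cannot give an exact permutation p under 0.1, so none was run. The fit was tested on simulated data. List medians and counts are descriptions without a test. The members and lists were chosen with earlier results of these data known. Every array's value was given for the 10 largest and 5 smallest differences, the 5 smallest p and 12 genes picked by name, except Ccnb1. For other lists the 2 smallest p and any gene past the threshold were named. Alternatives were 2 filters, quantile normalization, median centring, trend with robust variance, array weights, probe set means, a replicate block and each array left out. A further alternative dropped probe sets with names ending in _x_at, _s_at or _a_at. Array number limits the precision, and no pair of arrays was near-identical (r up to 0.987 over genes).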

Additional observations from a re-analysis of the deposited data

How the results depend on the processing

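None of the 39 genes passed under any of the 15 alternatives run, and each kept its lower mean wherever it was measured. In 1 alternative all probe sets with names ending in _x_at, _s_at or _a_at were dropped. That is a wider class than those that may cross-hybridize. It left no probe set for 10 of the 39 genes, and the median over the other 29 was -1.78. The median moved between -2.60 and -0.91 with single arrays left out. The number of genes whose groups were apart moved between 22 and 39, the highest without tumour replicate 2. That 39 was already given by the main values, as tumour replicates 1 and 3 lay below all normal arrays for all 39 genes. Smaller groups also come apart more easily, and no share of all genes is set beside these counts. They are therefore no added support for the separation. The median was -0.75 with array weights, under which it was -0.48 for other mitosis genes and -0.35 for DNA replication genes. With single arrays left out, other mitosis genes lay between -1.98 and -0.79 and DNA replication genes between -1.52 and -0.72. The genes linked to holding or ending the cycle lay between -0.21 and 0.091, so the sign of their median is not settled. Over all genes, 28 passed; 97 passed with a 60th percentile filter, 10 with none, 385 with array weights, 46 with the replicate block, and 4 to 81 with single arrays left out (4 without tumour replicate 3, 81 without normal replicate 1). The cause was not tested. Arrays with the same number deviated together at r = 0.19, 0.33 and -0.0038 over genes for numbers 1 to 3. For arrays with unlike numbers r was -0.37 to 0.13. The values for numbers 1 and 2 were thus the highest of all, and whether the numbers pair the arrays is not settled. The main fit did not pair them. The replicate block changed no call among the 39 genes (smallest adjusted p = 0.114, limma). Signal over background limited 1 value, Plk1 in tumour replicate 3.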
